A study of Homo sapiens with 12 samples.

Results

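Cells of HCT116, an established human colorectal cancer line, were compared after 2 h in 1% oxygen (2 h) and at 21% oxygen (0 h). The comparison took all libraries of these time points, 3 at each, which are 6 of the 12 libraries of a time course that also has 3 libraries each at 1 h and 24 h in 1% oxygen. Cells of the 1, 2 and 24 h groups entered the hypoxia workstation 24 h after plating, and all groups were grown in RPMI-1640 with serum. Poly(A) RNA was sequenced strand-specifically as paired reads, and each value is the FPKM of a transcript, its fragments per kilobase scaled to the mapped fragments of the library. The labels name no 2 h library kept at 21% oxygen, so handling and time in culture cannot be told apart from hypoxia. A gene is the summed FPKM of the transcripts under 1 gene name that matched the reference annotation or shared a splice site with it, and 15758 genes were compared.

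Cells sense oxygen through prolyl hydroxylases, which use it to mark the HIF alpha subunits for destruction. When oxygen falls, HIF alpha proteins accumulate, pair with ARNT and bind short elements with the core RCGTG at genes for angiogenesis, glycolysis, mitochondrial turnover and the hydroxylases themselves. Changes in stress and growth factor signalling also act within the first hours through the MAPK cascade, whose immediate early genes encode transcription factors and whose feedback genes encode phosphatases and Sprouty proteins. HCT116 cells are epithelial cells of colorectal origin in which both systems have been much studied.

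The libraries of both groups were alike over most genes. Pearson's r across genes, which are not independent replicates, was 0.981 to 0.986 within 0 h, 0.980 to 0.983 within 2 h and 0.963 to 0.985 between the groups. Of 10 colon epithelium markers 7 passed the filter on low FPKM, with summed FPKM of 2006 to 2830 at 0 h and 2064 to 2379 at 2 h. Of 7 fibroblast, 7 leukocyte and 5 endothelial markers, 1, 1 and 0 passed, and no summed level of these lists was above 2.92 FPKM in any of the 6 libraries. PTPRC, CD3E, LUM and PECAM1 were listed at 0 throughout. The summed FPKM of a library was 1534760 to 2167620 at 0 h and 2656810 to 4780350 at 2 h, of which transcripts under 300 bases held 57.0% to 70.4% and 74.5% to 85.9%. For transcripts of 300 bases or more the sums were 642174 to 713467 and 671976 to 684989. Read depth cannot be taken from FPKM, so no counting interval is given and the spread between the 3 biological replicates is the measure of precision.

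At the thresholds of the study's methods, a change of more than 1 on the log2 scale with an adjusted p below 0.01, 5 genes were differentially expressed, which is 0.0317% of those tested. All 5 (MAFF, PIM1, SPRY1, ERRFI1 and KDM3A) were higher in hypoxia. SPRY1 met the filter on low FPKM through libraries in 1% oxygen alone, where it was high, so its call is no independent result. No gene was lower at these thresholds, although 1209 were lower at an unadjusted p under 0.05. The test was limma on log2(FPKM + 0.5) over all 12 libraries, a scale on which the change of weakly expressed genes is understated. An exact permutation test of 3 libraries against 3 cannot give a p below 0.1. At an adjusted p under 0.05 with any fold, 42 genes passed (0.267%), 30 of them higher (0.19%) and 12 lower (0.0762%), against 2360 at an unadjusted p under 0.05. The higher genes had log2 fold changes from 0.45 to 2.65 with a median of 1.06, and the lower genes from -1.69 to -0.61 with a median of -0.99, beside a median of -0.02 over all genes. In all 42 the 3 values at 2 h lay outside the range of the 3 at 0 h, which held for 25.3% of all genes. Protein-coding genes made up 41 of the 42. These directions are relative to the FPKM scale as deposited. Rescaling every library to the same total of all its transcripts (TPM) moved the median log2 fold change of all genes to -0.90, since short transcripts held more of the total at 2 h, and 14 of the 30 higher genes were then below 0 though each was above that median. On that scale 8417 genes passed at an adjusted p under 0.05, 45 higher and 8372 lower. The 14 were AREG, AREGB, EGLN1, KDM6B, KLF3, NAB2, PARD6B, RLF, RSRC2, SERTAD2, SOWAHC, SPRY4, VEGFA and ZNF160. TPM computed over the longer transcripts (300 bases or more) turned none of the 42. On that scale 46 genes passed at an adjusted p under 0.05 (limma), 33 of them among the 42, and 4 of the 5 stayed differentially expressed.

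Libraries of 0 h, 1 h and 2 h with the same replicate number varied together, so each result was also read with the replicate number as a block. Neither the labels nor the paper say that a number marks a shared culture or day, so this pairing was taken from the data. The fold changes of the full set of libraries are the same in both fits, and those without 2 h replicate 3 are not. With the block 223 genes passed at an adjusted p under 0.05 (1.42%), 130 higher (0.825%) and 93 lower (0.59%), and the 42 were all among them. The count also moved with the libraries in the fit, to 2043 with the block when the 3 libraries of 24 h were left out and to 608 with the block in the 6 libraries of 0 h and 2 h. Without the block these sets gave 97 and 39, and 14 of the 39 were among the 42. At the stricter thresholds 18 genes were differentially expressed with the block, 13 higher (0.0825%) and 5 lower (0.0317%). In the 6 libraries 0 were, with or without the block, and in the 9 libraries without 24 h 1 was, or 31 with the block. Among the 18 the further higher genes were BHLHE40, BTG1, GEM, HECA, KLF9, NR1D1, PNRC1 and SPRY4. The lower genes were MAT2A, the pseudogenes HSPA8P1, HSPA8P7 and HSPA8P9, and RP11-603K19.1, of a pseudogene type. KLF9 and the HSPA8 pseudogenes fall outside the rule for named genes and were named after their values were seen. The counts of 42 and 5 turned on single libraries. Without 2 h replicate 3, 14 genes passed at an adjusted p under 0.05 (13 higher, 1 lower) and 45 with the block (31 higher, 14 lower), and 2 genes (MAFF and ANKRD37) and 0 genes were differentially expressed. Without 0 h replicate 1, 2 or 3, or 2 h replicate 1, no gene was differentially expressed, and 8, 3, 5 and 10 passed at an adjusted p under 0.05. Replicate 3 held the highest of the 3 values at 2 h in 24 of the 30 higher genes and the lowest in 9 of the 12 lower ones. Over all genes it was the highest in 33.7%, and the share in which it was the lowest was not taken. The plot of changes by replicate number shows where the 3 replicates differed most.

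**Figure D1:**
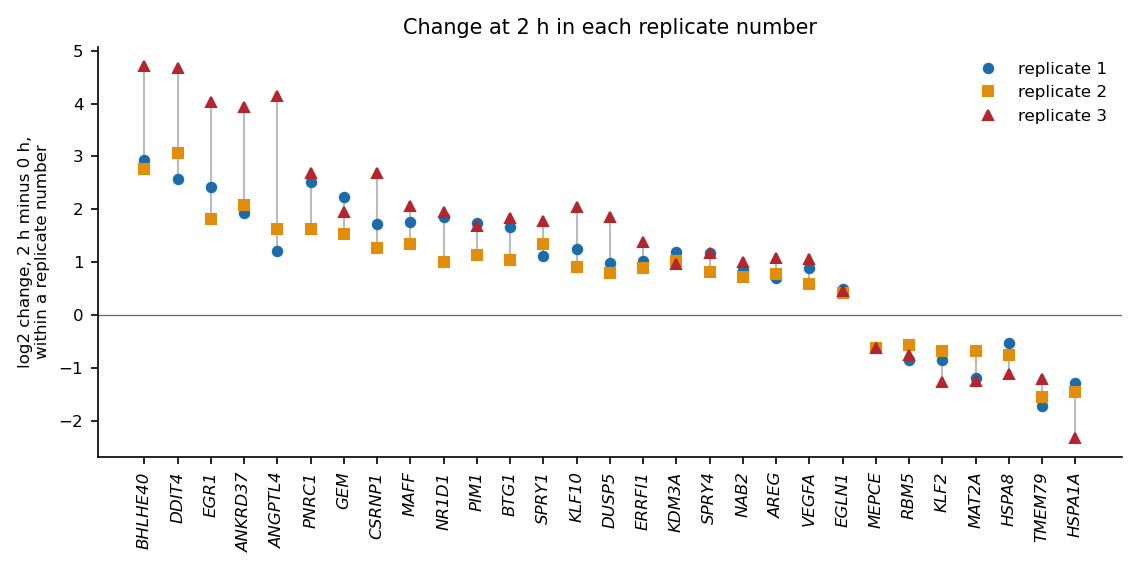
Log2 change from 0 h to 2 h (y axis) within each replicate number for 29 genes (x axis), 1 symbol per replicate; the vertical line joins the 3. BHLHE40, DDIT4, EGR1, ANKRD37 and ANGPTL4 changed most in replicate 3, while KDM3A and EGLN1 changed by nearly the same amount in all 3.

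KDM3A encodes a histone H3K9 demethylase that itself uses oxygen and is a well-known HIF target. The gene lies at chromosome 2, 86667770 to 86719839 (hg19). Its FPKM was 8.90, 8.82 and 10.8 in the 3 libraries at 0 h and 21.0, 18.4 and 21.4 at 2 h. The 2 h libraries were close together and all well above the highest value at 0 h. The mean of 9.50 ± 1.10 FPKM at 0 h and that of 20.3 ± 1.63 at 2 h (SD, n = 3 each) differ 2.13-fold. On the log2 scale the rise was 1.06 (standard error 0.12, limma adjusted p = 0.00566). At 1 h the 3 values were 9.67, 10.7 and 12.7, which overlap those of 0 h. It was 1.02 when 2 h replicate 3 was left out (adjusted p = 0.0263).

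MAFF, a small MAF transcription factor that partners NRF2 and other basic leucine zipper proteins, had the smallest adjusted p of all genes at 2 h. It lies at chromosome 22, 38596774 to 38612514 (hg19). Its FPKM was 6.53, 6.68 and 5.77 at 0 h, 13.2, 10.6 and 11.8 at 1 h and 23.4, 17.8 and 25.7 at 2 h. None of these 3 groups overlapped another. The rise at 2 h was 3.52-fold, or 1.73 on the log2 scale (standard error 0.15, adjusted p = 0.0014), and it was 1.62 without 2 h replicate 3 (adjusted p = 0.0056).

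PIM1 encodes a serine/threonine kinase that promotes survival and is controlled mainly through its transcription. The gene lies at chromosome 6, 37137928 to 37143204 (hg19). Its FPKM was 3.7, 4.29 and 4.73 at 0 h and 13.6, 9.96 and 16.2 at 2 h. The lowest 2 h value, in replicate 2, was above every 0 h value. Its log2 fold change was 1.52 (standard error 0.16, adjusted p = 0.00553), and without 2 h replicate 3 it was 1.36 (adjusted p = 0.0168).

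SPRY1 and ERRFI1 both restrain receptor tyrosine kinases, SPRY1 by blocking signalling to ERK and ERRFI1 (MIG6) by binding the EGF receptor kinase domain. SPRY1, at chromosome 4, 124317950 to 124324915 (hg19), had an FPKM of 0.651, 0.657 and 0.609 at 0 h and 1.98, 2.44 and 3.30 at 2 h. No single transcript of SPRY1 was above 0.5 FPKM at 0 h, so the filter was met through libraries in 1% oxygen alone. ERRFI1, at chromosome 1, 8064464 to 8086369 (hg19), had 186, 182 and 185 FPKM at 0 h and 379, 339 and 482 at 2 h. In both genes the 0 h libraries agree closely, and replicate 3 was the highest at 2 h. SPRY1 rose by 1.41 on the log2 scale (standard error 0.18, adjusted p = 0.00756), and by 1.24 without 2 h replicate 3 (adjusted p = 0.0263). That of ERRFI1 was 1.10 (standard error 0.13, adjusted p = 0.00566), or 0.96 without that library (adjusted p = 0.0185).

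The gene lists used from here on were chosen with earlier results of these data known, so their counts and medians are descriptions. Of 35 HIF target genes in a list, 33 were measured, and 4 of them rose at 2 h (ANKRD37, KDM3A, VEGFA and EGLN1) and none fell, against 0.19% and 0.0762% of all genes. The median log2 fold change of the list was 0.46, beside -0.02 over all genes, and 29 of the 33 values were above 0. With the block 10 members rose and 1 fell, against 0.825% and 0.59% of all genes. Leaving out 2 h replicate 3 gave counts of 2 and 0, or 4 and 0 with the block, and a median of 0.39.

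ANKRD37, which encodes an ankyrin repeat protein and is a direct HIF target, had the largest log2 fold change among the 42 genes. Its FPKM was 1.73, 1.82 and 1.84 at 0 h, 2.63, 2.59 and 3.59 at 1 h and 7.95, 9.32 and 35.4 at 2 h. Replicate 3 at 2 h stood far above the other two, although both of these were also above every library at 0 h and 1 h. It rose by 2.65 on the log2 scale (standard error 0.41, adjusted p = 0.0279), and without that library it was 1.99 (adjusted p = 0.0056).

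VEGFA, the angiogenic growth factor, had an FPKM of 15.2, 17.5 and 17.2 at 0 h, 17.2, 14.4 and 18.3 at 1 h and 28.5, 26.4 and 36.1 at 2 h. The values at 0 h and 1 h overlapped and those at 2 h lay above both. The log2 fold change at 2 h was 0.84 (standard error 0.13, adjusted p = 0.0316), and it did not pass without 2 h replicate 3 (0.71, adjusted p = 0.104). EGLN1 encodes PHD2, the main hydroxylase that marks HIF1A, and is itself induced by HIF. Its FPKM was 18.5, 17.6 and 18.7 at 0 h and 26.3, 23.8 and 25.7 at 2 h. The groups were tight and did not overlap, and the log2 fold change was small at 0.45 (standard error 0.08, adjusted p = 0.0449, or 0.163 without 2 h replicate 3).

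The other 6 HIF targets that were higher with the block did not pass without it. They include the largest log2 fold changes of the list, and they were chosen for description after their values were seen. BHLHE40 (DEC1), a transcriptional repressor, had 2.68, 4.18 and 6.42 FPKM at 0 h and 23.8, 31.4 and 182 at 2 h. DDIT4 (REDD1), an inhibitor of mTORC1, had 11.6, 14.6 and 20.6 FPKM at 0 h and 71.7, 126 and 537 at 2 h. In both genes the groups were well separated and replicate 3 at 2 h was several times the other two. The log2 fold change of BHLHE40 was 3.47 (standard error 0.66, adjusted p = 0.0573, and 0.00887 with the block), and without 2 h replicate 3 it was 2.57 (adjusted p = 0.113), or 2.88 with the block (0.0292). That of DDIT4 was 3.44 (standard error 0.75, adjusted p = 0.0894, and 0.0263 with the block), and without that library it was 2.61 (adjusted p = 0.275), or 2.97 with the block (0.107).

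ANGPTL4, a secreted inhibitor of lipoprotein lipase, had a log2 fold change of 2.32 (adjusted p = 0.106, and 0.0416 with the block) from 1.60, 1.35 and 1.33 to 4.33, 5.22 and 31.7 FPKM. Replicate 3 at 2 h stood far above the other libraries, so the size of this change leans on it. ADM, the vasodilator adrenomedullin, had 1.58 (0.139 and 0.0339), PDK1, the kinase that holds back pyruvate dehydrogenase, 1.00 (0.103 and 0.0328), and BNIP3, a receptor for mitophagy, 0.57 (0.0678 and 0.0381). The member that was lower with the block was P4HA2, a collagen prolyl hydroxylase, with 23.9, 22.7 and 22.2 FPKM at 0 h and 18.4, 18 and 17 at 2 h. Its log2 fold change was -0.36 (adjusted p = 0.117, and 0.0472 with the block). Without 2 h replicate 3, BHLHE40 and ANGPTL4 passed with the block (adjusted p = 0.0292 and 0.0425), and DDIT4, ADM, PDK1, BNIP3 and P4HA2 did not.

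Of 19 glycolysis and glucose transport genes 0 passed in either direction by limma, with or without the block, beside 1.42% and 0.267% of all genes, and their median log2 fold change was 0.07. Whether they differed from the other HIF targets was not tested. PGK1, phosphoglycerate kinase, had 403, 384 and 394 FPKM at 0 h and 449, 435 and 419 at 2 h (log2 fold change 0.14, adjusted p = 0.452). LDHA, lactate dehydrogenase, had a log2 fold change of 0.22 (adjusted p = 0.377), SLC2A1, the glucose transporter GLUT1, 0.08 (adjusted p = 0.702) and HK2, hexokinase, 0.85 (adjusted p = 0.209). Of 16 measured HIF pathway components EGLN1 alone passed, in both fits, and 0 without 2 h replicate 3, and the median was 0.04. HIF1A, the regulated HIF subunit itself, had 56.6, 62.9 and 62.4 FPKM at 0 h and 72.0, 62.9 and 74.8 at 2 h, and these ranges meet (log2 fold change 0.20, adjusted p = 0.437).

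**Figure D2:**
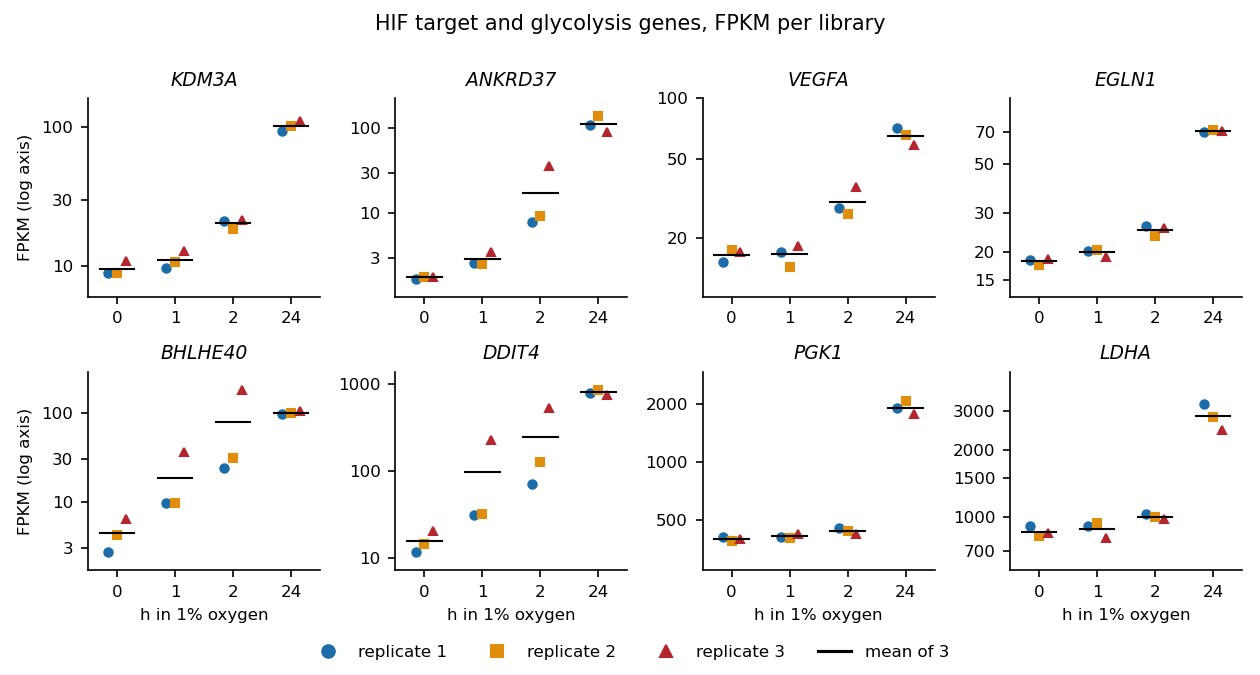
FPKM (log axis) of 8 HIF target and glycolysis genes against hours in 1% oxygen, with 1 symbol per replicate and a line at the mean of 3. KDM3A, ANKRD37, VEGFA and EGLN1 were higher in all 3 libraries at 2 h than at 0 h, BHLHE40 and DDIT4 passed with the block alone, and PGK1 and LDHA had log2 fold changes of 0.14 and 0.22 at 2 h.

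The promoter windows of 3 HIF targets that rose are shown because the HIF core motif can be read in them. Each runs from 250 bases before to 50 bases after the start of the gene in RefSeq (GRCh38.p14), 5′ to 3′ on the strand of the gene, and the capitals mark ACGTG or GCGTG on either strand. KDM3A is chr2:86441121-86441420 (plus strand), ANKRD37 is chr4:185396591-185396890 (plus strand) and EGLN1 is chr1:231422238-231422537 (minus strand).
KDM3A: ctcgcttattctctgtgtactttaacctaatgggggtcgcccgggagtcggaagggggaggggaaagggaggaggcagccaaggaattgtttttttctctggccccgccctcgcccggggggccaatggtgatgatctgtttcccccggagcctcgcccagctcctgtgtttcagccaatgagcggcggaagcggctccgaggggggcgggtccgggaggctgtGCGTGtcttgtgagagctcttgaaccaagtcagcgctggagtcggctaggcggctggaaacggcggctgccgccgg
ANKRD37: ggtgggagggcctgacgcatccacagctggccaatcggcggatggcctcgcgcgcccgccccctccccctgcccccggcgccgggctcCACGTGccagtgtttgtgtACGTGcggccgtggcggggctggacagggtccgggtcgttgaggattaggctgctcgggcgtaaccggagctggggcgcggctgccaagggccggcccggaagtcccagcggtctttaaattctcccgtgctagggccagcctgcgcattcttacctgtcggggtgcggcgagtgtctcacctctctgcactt
EGLN1: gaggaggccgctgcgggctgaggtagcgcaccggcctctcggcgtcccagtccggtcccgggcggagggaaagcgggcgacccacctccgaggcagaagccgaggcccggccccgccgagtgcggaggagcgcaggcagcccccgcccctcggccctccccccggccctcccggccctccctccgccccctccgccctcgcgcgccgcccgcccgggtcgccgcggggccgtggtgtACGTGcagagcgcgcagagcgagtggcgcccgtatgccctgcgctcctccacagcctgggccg

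KDM3A held 1 match, to GCGTG, and EGLN1 1 match, to ACGTG. ANKRD37 held 3 matches to ACGTG, of which 2 overlap within CACGTG, read on both strands. Among the other differentially expressed genes SPRY1 held 2 matches to GCGTG and MAFF 2 to ACGTG within 1 CACGTG, whereas PIM1 and ERRFI1 held neither motif in this window. These 5-letter motifs are common. At least 1 match was present in 48.4% of all promoter windows and in 64.3% of the 8976 windows matched by name to genes tested. Of the 30 higher genes 23 were matched, and 16 of them held a match (69.6%). Of the 12 lower genes 10 were matched and 5 held one. For ACGTG alone the shares were 27.3% of genes tested, 34.8% of the higher genes (8 of 23), 2 of the 10 lower genes, 38.5% of the genes higher with the block (35 of 91) and 23.4% of those lower with it (11 of 47).

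The cyclic AMP response element TGACGTCA, a palindrome bound by CREB and ATF proteins, was looked for after the values were seen. It was present in 3.34% of the matched windows of genes tested, in 4 of the 23 higher genes (17.4%: MAFF, HECA, AREG and MOAP1) and in 0 of the 10 lower genes. With the block it was in 8.79% of the higher genes and 0 of the 47 matched lower ones. The windows of MAFF, chr22:38201744-38202043, AREG, chr4:74444886-74445185, and HECA, chr6:139134830-139135129, all on the plus strand, are given with this motif in capitals.
MAFF: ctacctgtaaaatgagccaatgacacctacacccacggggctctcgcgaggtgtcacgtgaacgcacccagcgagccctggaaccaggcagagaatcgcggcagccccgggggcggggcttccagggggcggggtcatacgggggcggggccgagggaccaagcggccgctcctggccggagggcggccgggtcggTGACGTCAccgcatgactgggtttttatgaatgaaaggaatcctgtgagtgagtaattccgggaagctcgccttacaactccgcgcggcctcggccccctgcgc
AREG: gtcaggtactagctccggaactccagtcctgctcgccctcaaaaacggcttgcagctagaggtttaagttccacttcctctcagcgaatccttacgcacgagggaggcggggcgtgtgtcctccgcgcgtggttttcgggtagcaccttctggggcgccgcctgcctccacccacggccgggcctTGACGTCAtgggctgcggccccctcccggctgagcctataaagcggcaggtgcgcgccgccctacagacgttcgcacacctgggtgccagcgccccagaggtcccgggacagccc
HECA: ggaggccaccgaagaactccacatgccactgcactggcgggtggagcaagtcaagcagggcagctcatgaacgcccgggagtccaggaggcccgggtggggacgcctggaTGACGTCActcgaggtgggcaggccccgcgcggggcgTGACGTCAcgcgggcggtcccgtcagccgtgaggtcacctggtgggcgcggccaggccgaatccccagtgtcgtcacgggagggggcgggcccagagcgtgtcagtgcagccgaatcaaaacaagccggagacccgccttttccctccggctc

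HECA held 2 copies of TGACGTCA, while MAFF and AREG held 1 each.

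The next list holds genes that answer to and restrain MAPK signalling. Of 17 MAPK phosphatase and feedback genes, all measured, 4 rose (SPRY1, SPRY4, ERRFI1 and DUSP5) and none fell, beside 0.19% of all genes higher and 0.0762% lower, with a median log2 fold change of 0.65. SPRY1 is counted here although it met the filter on low FPKM through libraries in 1% oxygen alone. With the block 6 rose (0.825% of all genes), and without 2 h replicate 3 the counts were 2, or 3 with the block, with a median of 0.53. DUSP5, a nuclear ERK phosphatase, had 78.8, 68.0 and 53.4 FPKM at 0 h and 157, 118 and 194 at 2 h. The groups did not overlap, though replicate 3 went from the lowest at 0 h to the highest at 2 h. Its log2 fold change was 1.21 (standard error 0.19, adjusted p = 0.0276, or 0.0972 without 2 h replicate 3). SPRY4, a second Sprouty inhibitor of ERK signalling, had 11, 13.6 and 13.6 FPKM at 0 h and 25.5, 24.3 and 31.2 at 2 h (log2 fold change 1.05, adjusted p = 0.0449, or 0.182 without 2 h replicate 3). The other two members called with the block, DUSP16 and PHLDA1, are named here after their values were seen and had log2 fold changes of 0.82 and 0.65 (adjusted p with the block = 0.0439 and 0.0476). DUSP6, the cytoplasmic ERK phosphatase, had 0.51 (adjusted p = 0.0902).

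Among 8 measured EGF receptor ligands and receptors AREG passed, in both fits, beside 0.19% of all genes higher (0.825% with the block), and the median was 0.36. AREG encodes amphiregulin, an EGF receptor ligand made by epithelial cells. Its FPKM was 169, 171 and 154 at 0 h, 234, 227 and 249 at 1 h and 275, 293 and 323 at 2 h. Each group lay above the one before it without overlap. AREG rose by 0.85 on the log2 scale (standard error 0.11, adjusted p = 0.00756), and it was 0.79 without 2 h replicate 3 (adjusted p = 0.043). The near-identical AREGB had 0.78 (adjusted p = 0.0326, or 0.133 without 2 h replicate 3), and reads may have been divided between these copies. EREG, epiregulin, had 128, 129 and 139.6 FPKM at 0 h and 227, 179 and 271 at 2 h (log2 fold change 0.75, adjusted p = 0.094, and 0.0514 with the block).

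Immediate early genes had the highest median of any list, a log2 fold change of 1.12 over 22 measured genes, yet 1 of them passed (KLF10) and 9 with the block, all higher, beside 0.19% and 0.825% of all genes. The median was 0.81 without 2 h replicate 3, and 1 then passed in either fit. EGR1, a zinc finger factor induced by ERK, had 9.43, 10.4 and 12.2 FPKM at 0 h, 86.4, 72.7 and 332 at 1 h, 52.8, 38.0 and 206 at 2 h and 20.8, 30.4 and 32.4 at 24 h. Every library at 1 h and 2 h lay above every library at 0 h, and replicate 3 was the highest by far at both times. The log2 fold change at 2 h was 2.76 (standard error 0.60, adjusted p = 0.0894, and 0.0215 with the block), or 2.03 without 2 h replicate 3 (adjusted p = 0.258) and 2.33 with the block as well (0.0735). FOSB, an AP-1 subunit, had 0.612, 0.577 and 0.700 FPKM at 0 h and 5.58, 1.86 and 7.28 at 2 h, with replicate 2 lowest at 2 h (log2 fold change 2.09, adjusted p = 0.0894, and 0.0327 with the block).

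The other members that passed with the block alone were EGR3 (2.15), JUNB (1.66), NR4A1 (1.62), NR4A2 (1.56), JUN (0.80) and BTG2 (0.48), given as log2 fold changes. EGR3 had 0, 0.18 and 0.18 FPKM at 0 h. It met the filter on low FPKM through libraries of 1 h and 2 h alone, where it was high, so its call is no independent result. KLF10, a TGF-beta-inducible Kruppel-like repressor, had 25.5, 29.1 and 31.3 FPKM at 0 h and 61.2, 55.1 and 131 at 2 h. Its log2 fold change was 1.40 (adjusted p = 0.0456), and without 2 h replicate 3 it was 1.01 (adjusted p = 0.0263). FOS had 2.01, 1.83 and 1.99 FPKM at 0 h, 9.39, 8.20 and 51.7 at 1 h and 7.46, 4.87 and 15.7 at 2 h and did not pass (log2 fold change at 2 h 1.86, adjusted p = 0.182, and 0.0925 with the block). ATF3, ZFP36 and IER3 did not pass in either fit, with 0.85, 1.61 and 1.39. NAB2, a corepressor that binds EGR1, is not in the list and rose evenly in all 3 replicates. Its FPKM was 17.1, 19.7 and 16.8 at 0 h and 31.4, 32.9 and 34.1 at 2 h (log2 fold change 0.86, standard error 0.10, adjusted p = 0.00566).

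**Figure D3:**
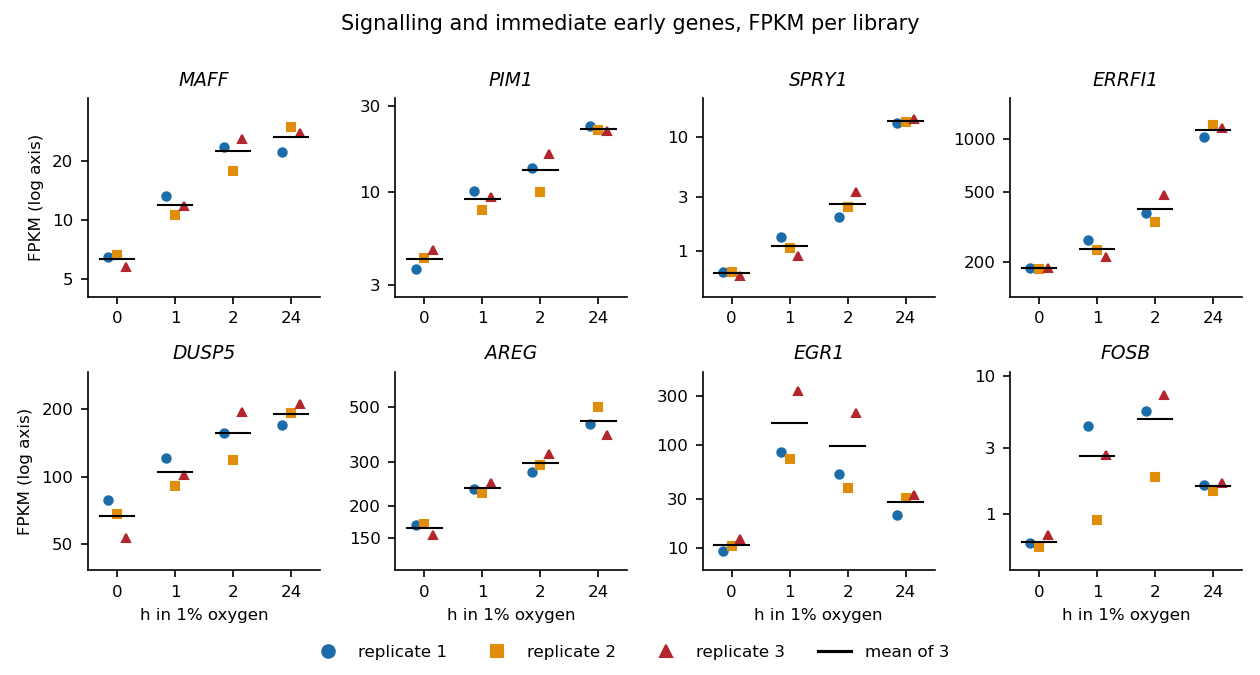
FPKM (log axis) of 8 signalling and immediate early genes against hours in 1% oxygen, with 1 symbol per replicate and a line at the mean of 3. MAFF, PIM1, SPRY1, ERRFI1, DUSP5 and AREG were higher in all 3 libraries at 2 h than at 0 h, and for EGR1 and FOSB, which passed with the block alone, the mean at 24 h lay below that at 2 h.

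PNRC1, a nuclear receptor coactivator, also rose, and had 2.39, 3.04 and 4.17 FPKM at 0 h and 16.1, 10.4 and 29.5 at 2 h (log2 fold change 2.28, adjusted p = 0.0316). It was 1.89 without 2 h replicate 3 (adjusted p = 0.0998), or 2.07 with the block (0.0377). BTG1, an antiproliferative protein, had 7.40, 7.64 and 9 FPKM at 0 h and 24.7, 16.3 and 33.3 at 2 h (log2 fold change 1.52, adjusted p = 0.0199). CSRNP1, a cysteine- and serine-rich nuclear protein, had a log2 fold change of 1.9 (adjusted p = 0.0279) and GEM, a small GTP-binding protein, also 1.9 (adjusted p = 0.0258). Without 2 h replicate 3 BTG1 and CSRNP1 passed (adjusted p = 0.0458 and 0.0263) and GEM did not (0.1). In each of these 4 genes every 2 h library lay above every 0 h library. HECA, the homologue of the fly gene headcase, had 1.63, 1.83 and 2.04 FPKM at 0 h and 4.84, 3.79 and 5.04 at 2 h (log2 fold change 1.11, adjusted p = 0.0147, or 0.0766 without 2 h replicate 3). FRAT2, an inhibitor of GSK3 that acts in Wnt signalling, had 1.16 (adjusted p = 0.0449, or 0.169 without that library).

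A list of 11 Kruppel-like factors left out KLF10, which was counted with the immediate early genes and also rose. Of the 11, 1 rose and 1 fell, and 2 rose and 1 fell with the block, with a median of 0.51. The shares over all genes were 0.19% higher and 0.0762% lower, or 0.825% and 0.59% with the block. KLF3, a repressor, had 6.89, 7.23 and 8.01 FPKM at 0 h and 13.2, 11.2 and 13.2 at 2 h (log2 fold change 0.72, adjusted p = 0.0381). KLF2 went the other way, from 13.5, 16.7 and 16 to 7.24, 10.2 and 6.36 FPKM (log2 fold change -0.94, adjusted p = 0.0449). KLF9 passed with the block alone, with 1.48 (adjusted p = 0.0572, and 0.00887 with the block). Without 2 h replicate 3 neither KLF3 nor KLF2 passed (adjusted p = 0.15 and 0.163). Of the 11, 0 then passed, or 1 higher and 0 lower with the block. Of 11 measured circadian clock genes 1 rose, NR1D1, which encodes the repressor REV-ERB alpha, and 3 with the block, beside these same shares of higher genes. Its FPKM was 6.08, 11 and 11.7 at 0 h and 23.2, 22.5 and 46.6 at 2 h (log2 fold change 1.60, adjusted p = 0.0456, or 0.139 without 2 h replicate 3). PER1 (1.45) and NR1D2 (0.55) passed with the block alone (adjusted p with the block = 0.0245 and 0.0437), which they did not do without 2 h replicate 3 (0.0699 and 0.151). The median of the clock list was 0.28, and -0.10 without 2 h replicate 3.

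Of 17 measured Jumonji histone demethylases, which need oxygen for catalysis, KDM3A and KDM6B rose in both fits, beside 0.19% of all genes and 0.825% with the block, with a median of 0.07. KDM6B, an H3K27 demethylase, had 2.52, 2.99 and 2.91 FPKM at 0 h and 5.13, 4.56 and 4.78 at 2 h (log2 fold change 0.69, adjusted p = 0.0449, or 0.158 without 2 h replicate 3). Among 15 genes of the NRF2 and oxidative stress list MAFF alone rose, and MAFG (0.52) passed with the block alone, beside the same 0.19% and 0.825% of all genes. Without 2 h replicate 3, 1 gene of this list rose in either fit. The remaining genes that rose were ZNF160 (log2 fold change 0.97, adjusted p = 0.00756), MOAP1 (1.05), PARD6B (1.02), SERTAD2 (0.99), SOWAHC (0.97), RLF (0.73) and RSRC2 (0.55). Of these, ZNF160 and RSRC2 passed without 2 h replicate 3 (adjusted p = 0.0263 and 0.0458).

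Heat shock chaperones were among the genes that fell. Of 15 in the list, all measured, 2 fell (HSPA1A and HSPA1B) and 4 with the block, beside 0.0762% and 0.59% of all genes, and none rose. The median log2 fold change was -0.19. When 2 h replicate 3 was left out none passed, 3 fell with the block, and the median was -0.26. HSPA1A and HSPA1B encode near-identical inducible HSP70 proteins from neighbouring genes on chromosome 6 (31783320 to 31785723 and 31795515 to 31798031, hg19), and reads may have been divided between them. HSPA1A had 291, 251 and 228 FPKM at 0 h, 137, 118 and 151 at 1 h and 119, 91.0 and 44.8 at 2 h. All libraries at 1 h and 2 h lay below those at 0 h, and replicate 3 was the lowest at 2 h. The log2 fold change at 2 h was -1.69 (standard error 0.30, adjusted p = 0.0449, and 0.0168 with the block), or -1.29 without that library (adjusted p = 0.0947) and -1.34 with the block as well (0.0292). HSPA1B had -1.67 (adjusted p = 0.0449).

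HSPA8, the constitutive HSC70, and BAG3, a cochaperone of HSP70, passed with the block alone. HSPA8 had 2473, 2253 and 2177 FPKM at 0 h and 1703, 1326 and 1007 at 2 h, with no overlap (log2 fold change -0.80, adjusted p = 0.0894, and 0.0336 with the block, or 0.137 with the block without 2 h replicate 3). BAG3 had a log2 fold change of -0.61 (adjusted p = 0.0572, and 0.0118 with the block). HSP90AA1, the inducible HSP90, had 2712, 2252 and 2347 FPKM at 0 h and 2854, 2378 and 2309 at 2 h, and these ranges overlap (log2 fold change 0.04, adjusted p = 0.915). DNAJB1, an HSP40, had -0.80 (adjusted p = 0.149).

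The other genes that fell share no list. MAT2A makes S-adenosylmethionine, the methyl donor of the cell. Its FPKM was 183, 163 and 166 at 0 h, 145, 151 and 119.6 at 1 h and 79.8, 102 and 69.5 at 2 h, where every library was below the lowest at 1 h. The log2 fold change at 2 h was -1.04 (standard error 0.14, adjusted p = 0.0128), and -0.92 without 2 h replicate 3 (adjusted p = 0.0458). RBM5, an RNA-binding regulator of splicing, had 33.2, 33.9 and 33.4 FPKM at 0 h and 18.1, 22.6 and 19.5 at 2 h (log2 fold change -0.73, adjusted p = 0.0258, or 0.0972 without 2 h replicate 3). MEPCE, the capping enzyme of the 7SK RNA, had 24.3, 23.4 and 22.1 FPKM at 0 h and 15.8, 15.1 and 14.2 at 2 h (log2 fold change -0.61, adjusted p = 0.0215, or 0.0947 without that library). HAS3, a hyaluronan synthase, had 15.4, 12.1 and 14.9 FPKM at 0 h and 8.22, 8.16 and 8.36 at 2 h (log2 fold change -0.74, adjusted p = 0.0381, or 0.118 without it). In all 3 of these genes the groups were well separated. TMEM79 (-1.50), RP11-603K19.1 (-1.33), NBPF1 (-1.04), KNOP1 (-0.73) and ZNF777 (-0.72) also fell, and none of them passed without 2 h replicate 3. The loci of RBM5, HAS3 and NBPF1 also hold RBM6, TANGO6 and CROCCP2.

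**Figure D4:**
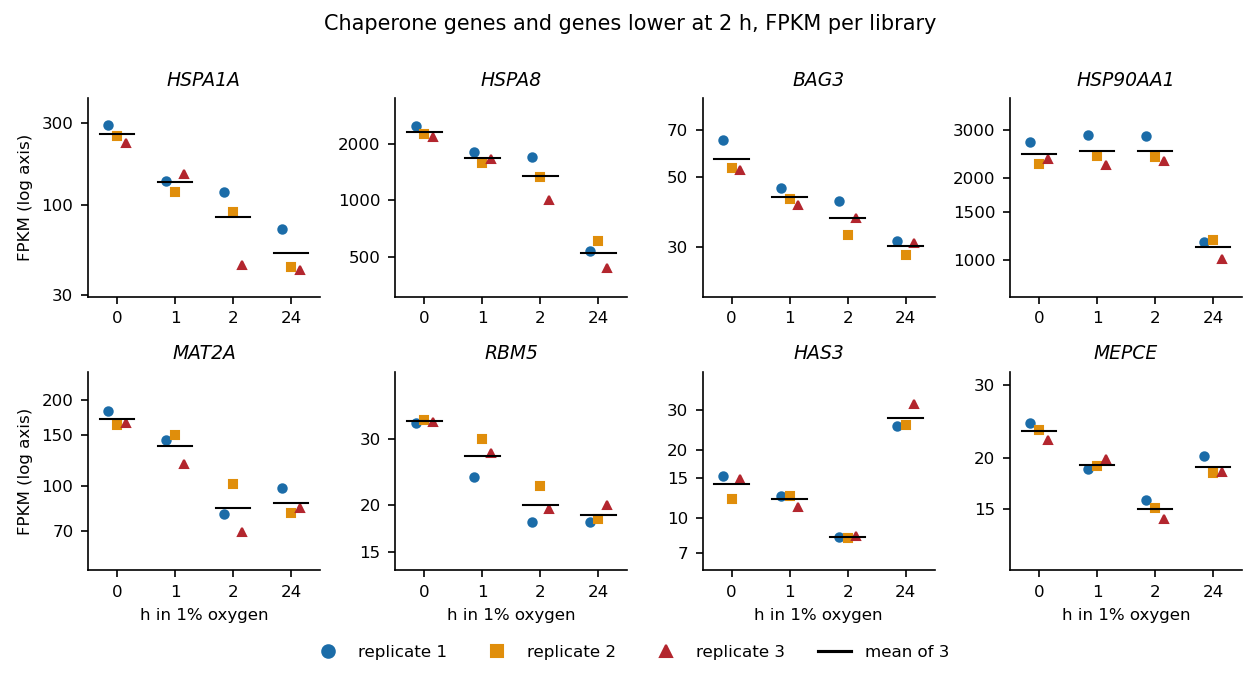
FPKM (log axis) of 8 chaperone genes and genes that were lower at 2 h against hours in 1% oxygen, with 1 symbol per replicate and a line at the mean of 3. HSPA1A, MAT2A, RBM5, HAS3 and MEPCE were lower in all 3 libraries at 2 h than at 0 h, HSPA8 and BAG3 passed with the block alone, and HSP90AA1 overlapped between the groups.

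In 10 further lists no measured member passed in either fit, where 0.267% of all genes passed, and 1.42% with the block, so a count of 0 is near the background. These were YAP and serum response targets (13 measured), ATF4 targets (17), the unfolded protein response (16), NF-kB targets (12), cholesterol synthesis (18), respiratory chain subunits (18), G2/M genes (15), DNA replication (16), DNA damage response genes named by the study (21) and epithelial and mesenchymal genes (10). Their median log2 fold changes were 0.09, -0.0050, 0.01, 0.13, 0.30, 0.03, 0.10, -0.03, -0.02 and 0.20 in this order. The median of cholesterol synthesis was 0.04 without 2 h replicate 3, and INSIG1, its feedback regulator, had 6.42, 8.10 and 14.4 FPKM at 0 h and 20.2, 15.4 and 78.0 at 2 h (adjusted p = 0.202). In 7 lists members passed with the block alone, while none passed without it, beside 0.825% of all genes higher and 0.59% lower with the block. These members were BHLHE40 among 9 measured bHLH repressors, MXD1 (1.08) among 12 genes of the MYC network, BBC3 (0.99) and BTG2 among 21 p53 targets, CLK1 (0.83) among 24 splicing factors and kinases, NOP56 (-0.42) among 18 genes of ribosome biogenesis, BMP4 (-0.79) among 11 TGF-beta, Notch and Wnt feedback genes, and MIR210HG (1.46), the host of miR-210, among 10 long noncoding RNAs. MIR210HG had no transcript above 0.5 FPKM at 0 h and met the filter on low FPKM through libraries in 1% oxygen alone. Its call is therefore no independent result. Without 2 h replicate 3, BHLHE40 passed with the block and the other 6 lists had 0 members that passed in either fit. MYC had 184, 154 and 146 FPKM at 0 h and 131, 121 and 98.4 at 2 h and did not pass (log2 fold change -0.47, adjusted p = 0.206).

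**Figure D5:**
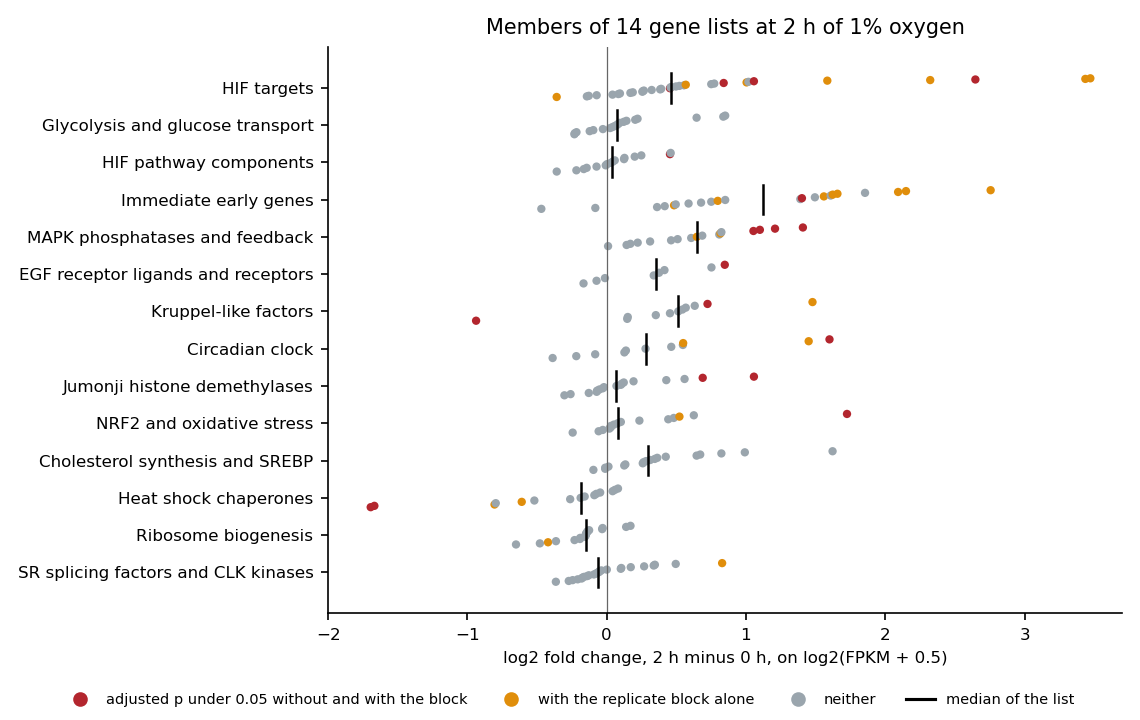
Log2 fold change at 2 h (x axis) of each measured member of 14 gene lists, coloured by whether the adjusted p was under 0.05 in both fits, with the block alone or in neither; the black line is the median of each list. Immediate early genes have the highest median, 1.12, and heat shock chaperones the lowest, -0.19.

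The step from 1 h to 2 h was tested directly. At an adjusted p under 0.05, 1 gene differed (0.00635%), while 549 had an unadjusted p under 0.05. This was RNVU1-16, a variant U1 RNA gene of which poly(A) libraries give only a partial view. It was listed at 0 in all libraries at 0 h, 2 h and 24 h and had 3.73, 3.35 and 1.5 FPKM at 1 h. It met the filter on low FPKM through the 1 h libraries alone, the group where it was high, so its calls are given as a description. With the block KDM3A passed too, higher at 2 h than at 1 h by 0.85 (adjusted p = 0.0202, and 0.0717 without the block). This call was lost when 2 h replicate 3 or the 24 h libraries were also left out, where 0 genes passed with the block. The next smallest values without the block were those of ZNF160 (0.89, adjusted p = 0.0699) and NAB2 (0.67, adjusted p = 0.0717). RNVU1-16 was also the 1 gene that passed between 1 h and 0 h. Its call at 2 h against 1 h was lost without 1 h replicate 2, which left 0 genes, and with the block when the 24 h libraries or 2 h replicate 3 were left out. In the 6 libraries of 1 h and 2 h alone the 1 gene that passed was another, RNF103-CHMP3, named after its values were seen and higher at 2 h by 2.78 (adjusted p = 0.0214).

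Between 2 h and 24 h 7714 genes (49%) differed. KDM3A went on to 93.6, 102 and 110.2 FPKM at 24 h, EGLN1 to 70.0, 71.3 and 70.8, and SPRY1 to 13.2, 13.5 and 14.3. MAFF had 22, 29.4 and 27.4 FPKM at 24 h, a range that overlaps that of 2 h (24 h minus 2 h 0.24 on the log2 scale, adjusted p = 0.22). KLF10 and MOAP1 were lower at 24 h than at 2 h, by -0.80 and -0.62 (adjusted p = 0.02 and 0.00762). HAS3, low at 2 h, had 25.6, 25.7 and 32 FPKM at 24 h.

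At the level of single transcripts 2 of 62162 passed at 2 h (0.00322%), while 5723 had an unadjusted p under 0.05. A partly matching transcript of ANKRD10 of 1291 bases rose from 4.09, 4.02 and 3.27 to 31.1, 15.2 and 16.9 FPKM (log2 fold change 2.26, adjusted p = 0.0436), and its share of the FPKM of the gene went from 11.4% to 37.1%. A transcript of LPP of 212 bases was listed at 0 at 0 h, 1 h and 24 h and had 2.58, 3.58 and 1.9 FPKM at 2 h (adjusted p = 0.0122). It met the filter on low FPKM through the 2 h libraries alone, the group where it was high, so its call is no independent result. With the block ANKRD10 passed (adjusted p = 0.0461) and LPP did not (0.0501). Leaving out 0 h replicate 1 or 2, or 2 h replicate 1, left 0 transcripts, and leaving out 0 h replicate 3 or 2 h replicate 2 gave 7 and 17. Each transcript was given the type of its nearest reference transcript, also where it only shared a splice site with it. An unlisted form that keeps an intron may therefore be counted as coding. Of 7182 retained-intron transcripts 0 passed at 2 h (limma), while 664 had an unadjusted p under 0.05, 239 of them higher and 425 lower. This was 9.2% of them, as over all transcripts (9.2%), of which 2894 were higher and 2829 lower. The median log2 fold change of this type was -0.07, beside -0.01 over all transcripts. Of 4430 nonsense-mediated decay transcripts 0 passed and 400 had an unadjusted p under 0.05.

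The study centres on switches of the major isoform between coding and noncoding, typed by Ensembl. Here another measure was taken, the share of a gene's FPKM in transcripts typed as noncoding, with GENCODE types. It was taken for 23 genes of a list of SR splicing factors, the CLK and SRPK kinases that act on them, and a few other RNA-binding proteins such as HNRNPA1 and RBM3. This share was lower at 2 h than at 0 h in 19 genes and higher in 4, with a median change of -1.57 percentage points. Over the 7101 genes with a noncoding transcript it was lower in 3432 and higher in 2711, with a median change of 0 and a mean change of -0.62 points. The median change over the 23 genes was -2.55, -1.60 and -1.19 points in replicates 1, 2 and 3, and over the 7101 genes it was 0 in each. The largest change among the 23 was that of CLK4, a kinase that phosphorylates SR proteins. Its noncoding share was 53.5%, 48.1% and 44.4% at 0 h and 19.7%, 30.4% and 12.8% at 2 h. SRSF6 had 33.8%, 39.6% and 32.7% at 0 h and 18.7%, 33.1% and 16.3% at 2 h, where replicate 2 overlapped the range at 0 h. At 24 h the median change of the 23 from 0 h was 5.86 points, with 15 genes higher. These shares are descriptions and were not tested, and single transcripts of a gene are estimated jointly from shared reads.

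Pseudogenes were 16.8% of the genes tested (2642), and with the block 30 of them fell and 0 rose, which is 32.3% of the 93 genes that fell. Without the block 1 passed, and without 2 h replicate 3 the counts were 5 with the block and 0 without it. Their median log2 fold change was -0.25, beside 0.01 for 11461 protein-coding genes, and it was -0.32, -0.21 and -0.17 in replicates 1, 2 and 3. All 4 measured pseudogenes of HSPA8 fell with the block, or 3 when that library was left out, with log2 fold changes from -1.43 to -1.06, and they share much of their sequence with HSPA8. Reads shared with parent genes make single pseudogene values uncertain.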

How the data were processed

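The authors sequenced poly(A) RNA of HCT116 cells, aligned the read pairs (hg19), ran Cufflinks on every sample, joined the models with Ensembl and deposited the FPKM of each transcript in 12 libraries. The submitters' processing notes also name CASAVA 1.8.2. No read counts were used here, so the counting error behind a value cannot be taken from FPKM, and no columns of the authors' own comparisons were used. Samples were grouped by the time point in their labels, and 0 per-sample columns were left out.

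Of 293768 transcripts, the 62162 with FPKM above 0.5 in at least 3 libraries and class code = (49238) or j (12924) were kept and summed by gene name, giving 15758 genes. Changes were tested with limma 3.58.1 (R 4.3.3; lmFit and eBayes with trend, two-sided) on log2(FPKM + 0.5) over 12 libraries, with Benjamini-Hochberg adjustment. The steps were tested on simulated data. Python 3.11.15 and the data.table package (1.17.8) made the tables and figures, with numpy 2.4.6, pandas 2.3.3 and matplotlib 3.10.9. Gene positions and transcript types came from GENCODE on GRCh37, and promoter windows from RefSeq. A transcript of class code j took the type of its nearest reference transcript.

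The replicate numbers are those of the labels. Deviations from the group means correlated by 0.113 to 0.333 between same-numbered libraries of 0 h and 2 h. Between others they correlated by -0.263 to 0.0385. Such deviations cancel within a group, so the negative values follow in part from the positive ones. The numbers were taken to pair the samples from this pattern alone, since neither the labels nor the paper say what they mark. The 24 h libraries, which the block also covers, were not in this check.

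The gene lists and named genes were chosen with earlier results of these data known. Genes were named by size of change (up to 15 in each direction, with at least 300 bases) and by list (up to 6 that passed and the first 3 members). Alternatives were other pseudocounts, filters, scalings, libraries in the fit, class code = alone, the replicate block, and leaving out each replicate.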

Additional observations from a re-analysis of the deposited data

Results flagged for a closer look

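The following differences between time points passed a direct limma test of the difference. They are given as 24 h minus 2 h on the log2(FPKM + 0.5) scale. Among genes higher at 2 h than at 0 h, values were still higher at 24 h for ANKRD37 (2.93), KDM3A (2.30), SPRY1 (2.23), PNRC1 (2.00), ERRFI1 (1.5), EGLN1 (1.47), KDM6B (1.16), ZNF160 (1.16), VEGFA (1.10), GEM (0.98), HECA (0.96), SERTAD2 (0.85), PIM1 (0.76), RLF (0.66), AREG (0.55), AREGB (0.55), KLF3 (0.47) and NAB2 (0.43). They were lower at 24 h than at 2 h for KLF10 (-0.80) and MOAP1 (-0.62). Of the genes higher at 2 h, SPRY1 met the filter on low FPKM through libraries in 1% oxygen alone. Among genes lower at 2 h than at 0 h, values were higher at 24 h than at 2 h for HAS3 (1.69), NBPF1 (0.55), KLF2 (0.44) and MEPCE (0.33). Between 1 h and 2 h, RNVU1-16, which met the filter on low FPKM through the 1 h libraries alone, differed by -2.67 (2 h minus 1 h), and KDM3A by 0.85 with the replicate block alone.

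Outside the genes compared, the highest FPKM belonged to a 114-base transcript with no annotation (chromosome 2, 133038623 to 133038736, hg19), with a mean of 470841 FPKM at 0 h and 1768813 FPKM at 2 h. Its values were 446285, 319135 and 647103 FPKM at 0 h and 2236970, 1049880 and 2019590 at 2 h, with no overlap.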

How the results depend on the processing

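The count of differentially expressed genes at 2 h, 5, was 0 without the filter on low transcripts, 350 with TPM over all transcripts (12 higher, 338 lower), 24 at an adjusted p under 0.05 with the same fold, 0 with the 6 libraries of 0 h and 2 h alone and 18 with the replicate block. Among settings chosen after seeing the data, it was 1 with 9 libraries (24 h left out), 31 with these and the block, 0 with the 6 libraries and the block, and 0 with the block without 2 h replicate 3. Leaving out 1 replicate gave 0 to 5. The count at an adjusted p under 0.05, 42, was 16 without the filter, 8417 with TPM over all transcripts (45 higher, 8372 lower), 18 with class code = alone, 223 with the replicate block, 97 with 9 libraries, 2043 with 9 libraries and the block, and 608 with the 6 libraries and the block. Leaving out 1 replicate gave 3 to 44. The block was run with 1 library left out for 2 h replicate 3 alone, and gave 45. The 6 libraries alone gave 39, of which 14 were among the 42. The 42 genes were all called with the replicate block.

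For 2 h against 1 h, where 1 gene passed, the count was 25 with TPM over all transcripts, 0 for TPM restricted to transcripts of 300 bases or more and for these transcripts alone, 2 with the replicate block, 2 with 9 libraries and 0 with 9 libraries and the block. Leaving out 1 replicate gave 0 to 2. For single transcripts, of which 2 passed, it was 5 and 1 with pseudocounts of 0.1 and 1, 29 without the filter, 0 with FPKM above 1, 9 with TPM over all transcripts, 1 with the replicate block, and 0 for TPM restricted to transcripts of 300 bases or more and for these transcripts alone, with the 6 libraries, with 9 libraries and with the block in either of these sets. Leaving out 1 replicate gave 0 to 17.

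With TPM over all transcripts, whose median was -0.90, log2 fold changes turned negative for AREG (-0.24), AREGB (-0.31), ATF3 (-0.20), BNIP3 (-0.48), BTG2 (-0.53), CLK1 (-0.24), DUSP16 (-0.079), DUSP6 (-0.57), EGLN1 (-0.59), EGLN3 (-0.31), EREG (-0.34), HIF1A (-0.87), HK2 (-0.22), HSP90AA1 (-1.05), JUN (-0.22), KDM6B (-0.22), KLF3 (-0.29), LDHA (-0.87), NAB2 (-0.20), NDRG1 (-0.50), NR1D2 (-0.51), PARD6B (-0.018), PGK1 (-0.95), PHLDA1 (-0.43), RLF (-0.29), RSRC2 (-0.52), SERTAD2 (-0.076), SLC2A1 (-0.99), SOWAHC (-0.050), SPRY4 (-0.0092), TGFA (-0.66), VEGFA (-0.22) and ZNF160 (-0.0077). HSP90AA1, near 0, ranged from -0.052 (without 2 h replicate 1) to 0.12 when 1 replicate was left out and was -0.012 without 0 h replicate 2, and SLC2A1 was -0.0068 with the block without 2 h replicate 3. The causes of these movements were not tested.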

Other observations

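Copies of the 5S ribosomal RNA gene (RNA5S), transcripts of at most 119 bases that poly(A) selection is not meant to keep, were higher at 2 h with the replicate block in 11 of 16 cases, beside 0.825% of all genes, with log2 fold changes from 2.54 to 3.60 over all 16. Without the block the lowest adjusted p among them was 0.0894. Leaving out 2 h replicate 3 gave 8 of 16 with the block and 0 without it (lowest adjusted p = 0.258). Their summed level was 3884 to 6175 FPKM at 0 h and 22774 to 50530 FPKM at 2 h, and the near-identical copies share reads. The share of FPKM in transcripts under 300 bases was also higher in every 2 h library than in every 0 h library. Its part in the 5S values was not tested.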
